A study of Gossypium hirsutum with 12 samples.

Results

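The genes described here had many reads in cotton fiber at 12 days post-anthesis (DPA) and far fewer at 0 DPA, the day of flowering. They were chosen by the deposited stage means of normalized read counts: a 12 DPA mean of at least 1000, a 0 DPA mean above 0 and a ratio of the 12 DPA mean to the 0 DPA mean of at least 16. Of 37500 genes, 84 met these limits. After 6 gene IDs were left out by name, 78 remained, and these are called the abundant induced genes or members. The word induced stands only for the ratio of the stage means. Since the members were chosen on both means, their levels and ratios are a description, and no test was made of them.

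RNA of upland cotton (Gossypium hirsutum) was sequenced from 6 lines. Each line gave 1 library at 0 DPA and another at 12 DPA. The wild-type lines had brown fibers (BCF), green fibers (GCF) or white fibers (WCF). The lines 5#, 6# and 24# were offspring of 1 transgenic plant of the brown cultivar 'Zong 1282' that carried a hairpin against the chalcone isomerase gene GhCHI-1, driven by the constitutive CaMV 35S promoter, and their fibers were brown, green and white. The deposited table gives 1 mean per gene and stage over these lines, so the wild-type and RNAi lines cannot be told apart, no spread between lines can be given, and every value below is the authors' mean normalized count without an error. The labels name cotton fiber at both stages while the study's methods speak of ovules and fibers. The tissue and the stage therefore cannot be told apart, nor can fewer fiber cells from less RNA per cell.

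A cotton fiber is a single cell of the seed coat epidermis. It starts to bulge on the day of flowering, elongates fast for some weeks without dividing, and later lays down a thick cellulose wall. At 12 DPA a fiber is in its elongation phase. Elongation needs water uptake into a large vacuole, a wall that yields, new membrane and surface lipids, and microtubules that guide the deposition of the wall. Genes of each of these functions were among the members.

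The members' 0 DPA means ran from 3.27 to 970 normalized counts, with a median of 75.2. Over all genes with a 0 DPA mean above 0 the median was 34.2, and only 19 of the 78 members lay under it. Their 12 DPA means ran from 1011 to 54130, with a median of 2657. The counts are not divided by gene length, so their order between genes is an order of reads and not of transcripts. The median log2 ratio of 12 DPA to 0 DPA was 5.13, which is a 34.98-fold higher mean at 12 DPA, and the quartiles were 4.54 and 6.15. The log2 ratio was at least 6 for 22 members, at least 7 for 11 and at least 8 for 3. The median over the 30621 genes with reads at both stages was -0.08, and 2.61% of these genes were at least 16-fold higher at 12 DPA.

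**Figure D1:**
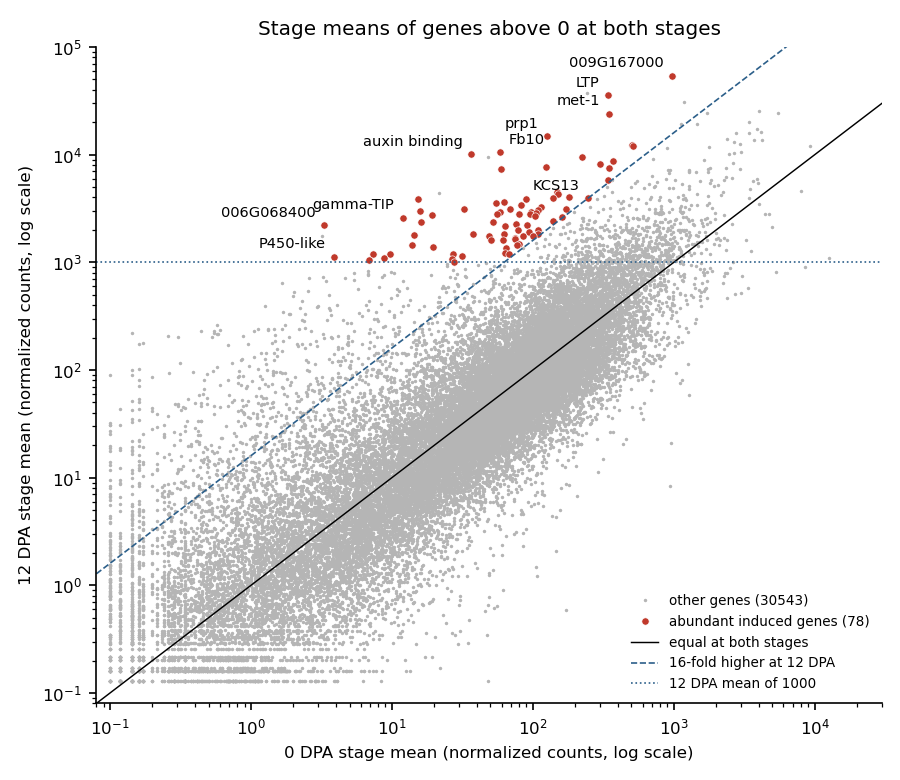
Each point is 1 gene with reads at both stages, with its 0 DPA mean on the x axis and its 12 DPA mean on the y axis, both as normalized counts on log scales. The 78 abundant induced genes (red) lie above the dotted line at 1000 and above the dashed line of 16-fold, the limits that chose them, and the highest of them is Gorai.009G167000 with a 12 DPA mean of 54130.

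High ratios were more frequent among genes with many reads at 12 DPA. Among the 776 genes with a 12 DPA mean of at least 1000, the 84 genes at 16-fold or more made up 10.8%. The share was 25% of the 76 genes with a 12 DPA mean of at least 5000 and 9.29% of the 700 genes between 1000 and 5000. Between 100 and 1000 it was 2.83% of 7843 genes, and between 10 and 100 it was 2.79% of 12337 genes. The 12 DPA mean enters both the level and the ratio, so this is a description of where the members lie. In the opposite direction, 1 of the 235 genes with a 0 DPA mean of at least 1000 was at least 16-fold lower at 12 DPA. No gene with a 12 DPA mean of at least 1000 was listed at 0 at 0 DPA, so the requirement of a mean above 0 removed nothing.

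Together the members held 9097 normalized counts at 0 DPA, or 0.299% of the sum over all genes, and 374428 at 12 DPA, or 7.69%. Their sum was thus 41.2-fold higher at 12 DPA, while the sum of all other genes was 1.48-fold higher. The sum over all genes was 3044867 at 0 DPA and 4870048 at 12 DPA. The rise of the members' sum equalled 20.02% of this net difference, in which genes that fell offset genes that rose. Both sums depend on how the libraries were normalized. A single gene, Gorai.009G167000, held 14.5% of the members' 12 DPA sum, the top 2 held 24.0% and the top 10 held 51.2%. By number of reads, no member was among the 100 highest genes at 0 DPA, where the best rank was 254. At 12 DPA 18 members were among the 100 highest and 3 among the 10 highest.

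For 35 members the study's supplementary gene tables gave a cotton record that names a protein. These named members held 57.8% of the members' 12 DPA sum and are described below by role. The gene tables, read in shortened form, gave an entry for 4596 of the 37500 IDs and a protein name for 540. How an ID was matched to a record is not given. The tables list mostly genes that were higher at 12 DPA: of the 531 named genes with reads at both stages, 477 (89.8%) were at least 2-fold higher, against 22.2% of all genes, and 3 were at least 2-fold lower, against 23.9%. Their median log2 ratio was 2.51. The counts of each functional list below stand against these values of the named genes and say nothing on the list by itself. Shares of a family's reads are shares over its named IDs, and other genes of the family may be missing. Members were chosen for high ratios, so their share of a family is higher at the later stage whenever the other IDs rose less. A rise of these shares is therefore favoured by the choice. The shares describe how reads were divided within a family and test nothing.

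**Figure D2:**
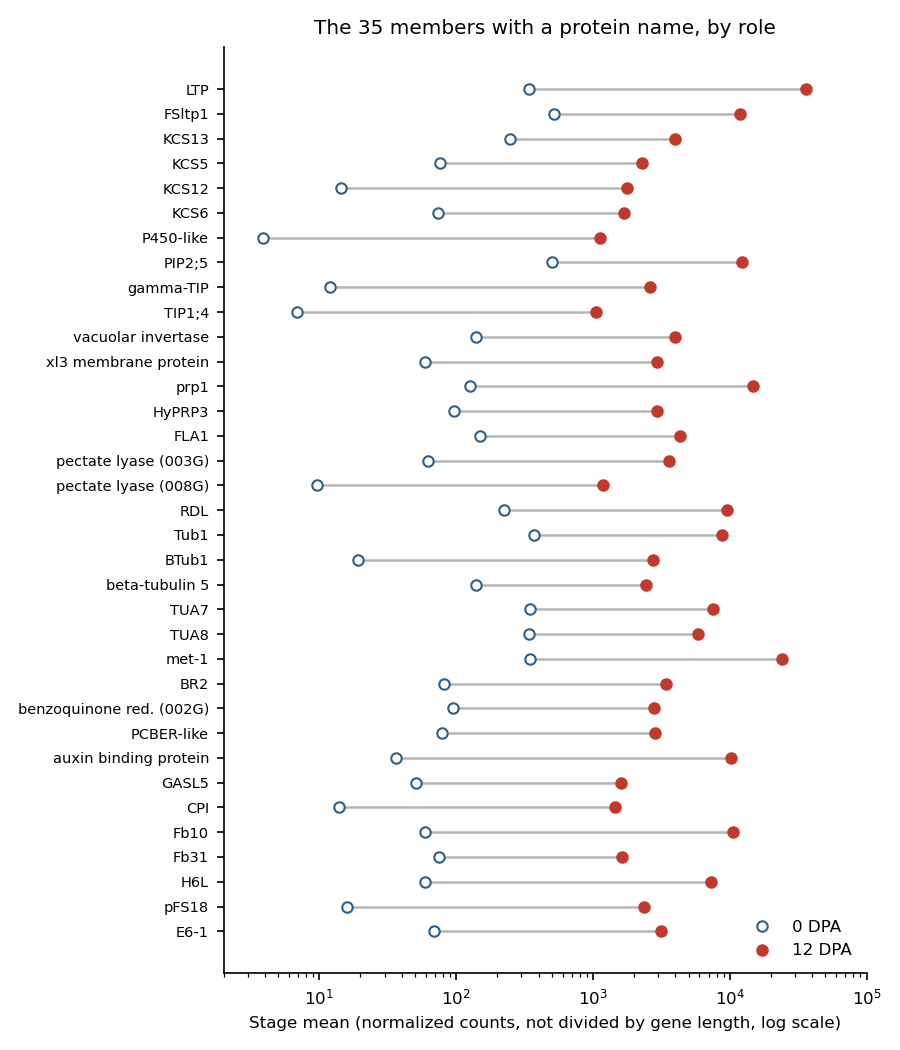
Each row is 1 of the 35 members with a protein name, ordered by role from lipids and water transport at the top to the list of fiber records at the bottom. The x axis gives the stage mean in normalized counts on a log scale, with an open circle for 0 DPA and a filled circle for 12 DPA; the 12 DPA means lie between 1058 (TIP1;4) and 35774 (LTP).

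Lipid transfer proteins, small secreted proteins that carry lipids and are found in the wall and cuticle of epidermal cells, were near the top by reads. The gene of the LTP record (Gorai.011G128100) had a mean of 340 at 0 DPA and 35774 at 12 DPA, a 105-fold difference. The gene beside it, FSltp1 (Gorai.011G128200), had 515 and 11920 and was 23.2-fold higher. Of the 5 IDs with a lipid transfer protein record, these 2 held 93.1% of the reads at 0 DPA and 99.5% at 12 DPA, and 3 of the 4 with reads at both stages were at least 2-fold higher, with a median log2 ratio of 3.99. The remaining 3 IDs stayed at 184 or below at 12 DPA.

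The first step in the elongation of very long chain fatty acids, which feed cuticle, wax and membrane lipids, is catalyzed by 3-ketoacyl-CoA synthase (KCS), and 4 members carried a KCS record. KCS13 (Gorai.002G218500) had means of 246 and 3950 and, at 16.03-fold, lay nearest to the ratio limit of all members. KCS5 (Gorai.005G190000) had 75.9 and 2266, and KCS6 (Gorai.009G102300) had 74.2 and 1698. KCS12 (Gorai.002G001100) started from 14.4 and reached 1785, a 124-fold difference and the largest of the 4. They held 51.5% of the reads of the 16 KCS IDs at 0 DPA and 72.5% at 12 DPA. The 11 other KCS IDs with reads at both stages ranged from a log2 ratio of -1.06 to 5.88. Only KCS14 (Gorai.008G041800) was lower at 12 DPA, at low means of 2.82 and 1.35. Of the 16 KCS IDs, 13 were at least 2-fold higher. The wider list of lipid genes, which holds lipases and acyl-CoA-binding proteins besides synthesis enzymes, had 33 IDs, of which 32 had reads at both stages, 30 were at least 2-fold higher and 1 at least 2-fold lower, with a median log2 ratio of 3.19.

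A cytochrome P450-like gene (Gorai.012G021600), named for the monooxygenases that oxidize lipids and many other metabolites, had the second highest ratio of all members. Its mean was 3.90 at 0 DPA and 1128 at 12 DPA, a log2 ratio of 8.18. Of 4 other IDs with the same record, the neighbour Gorai.012G021700 had 2.43 and 331, and Gorai.008G026100 had 0.160 and 34.3. Gorai.008G025900 had 0.986 and 9.56, and Gorai.012G021500 was listed at 0 and had 22.0 at 12 DPA. All 5 IDs were thus higher at 12 DPA, with the member at more reads than the other four. Of the 7 IDs on the P450 list, all 6 with reads at both stages were at least 2-fold higher, with a median log2 ratio of 7.42. All 7 have P450 in the record name, and 5 of them share the same record. P450 enzymes recorded under other names are not on this list, so the median does not stand for the whole class.

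Water channels formed the next group. PIP2;5 (Gorai.002G002500), an aquaporin of the plasma membrane, had means of 501 and 12246 and was 24.4-fold higher. The vacuolar membrane channels gamma-TIP (Gorai.013G265400) and TIP1;4 (Gorai.007G372700) started much lower, at 11.9 and 6.89, and reached 2605 and 1058, which is 218-fold and 154-fold. The members thus held 1 channel of the cell surface with many reads at both stages and 2 of the vacuole with few reads at 0 DPA. Outside the members this split did not hold. The vacuolar TIP1;1 (Gorai.009G413000) had 244 and 1675, and a plasma membrane PIP2;1 ID (Gorai.002G248400) had 7.44 and 227. Another ID with the PIP2;1 name, Gorai.011G239500, had 165 and 603. The 3 members held 30.4% of the reads of the 21 aquaporin IDs at 0 DPA and 73.3% at 12 DPA. Of the 21 IDs, 20 were at least 2-fold higher and none at least 2-fold lower, with a median log2 ratio of 2.66.

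Vacuolar invertase (Gorai.008G216800) splits sucrose into glucose and fructose in the vacuole, which raises the number of dissolved molecules that draw in water. Its mean was 139 at 0 DPA and 3963 at 12 DPA, a 28.6-fold difference. Another ID with the same record, Gorai.003G114000, had 8.69 and 25.4 and was 2.92-fold higher. The list of sucrose and carbohydrate metabolism held 28 IDs, of which 23 were at least 2-fold higher and none at least 2-fold lower, with a median log2 ratio of 2.03, and the invertase was its only member here. No member came from the 18 IDs for proton pumps and solute transport, of which 16 were at least 2-fold higher, with a median log2 ratio of 1.94 and a highest log2 ratio of 3.70.

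Among wall proteins, proline-rich protein-1 (prp1, Gorai.005G049400) had a mean of 126 at 0 DPA and 14775 at 12 DPA and was 118-fold higher. Hybrid proline-rich protein HyPRP3 (Gorai.007G027100) had 96.9 and 2923, a 30.1-fold difference. Proline-rich proteins are structural proteins of the plant wall, and of 9 such IDs 7 were at least 2-fold higher and none at least 2-fold lower, with a median log2 ratio of 3.24. The fasciclin-like arabinogalactan protein FLA1 (Gorai.008G155400), a glycoprotein of the cell surface, had 150 and 4313 and was 28.8-fold higher. It held 76.0% of the 12 DPA reads of the 7 fasciclin-like IDs, whose other log2 ratios ran from 0.68 to 3.13. The list of arabinogalactan proteins had 8 IDs, of which 6 were at least 2-fold higher, with a median log2 ratio of 2.35.

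The RD22-like protein RDL (Gorai.009G052200), a wall protein with a BURP domain, had means of 223 and 9474 and was 42.4-fold higher. Pectate lyase, which cuts pectin chains in the wall, was represented by both IDs with its record. Gorai.003G108300 had 62.1 and 3596, and Gorai.008G203900 had 9.70 and 1182, which is 57.9-fold and 122-fold. On the list of pectin and other wall sugar hydrolases 10 of 11 IDs were at least 2-fold higher, with a median log2 ratio of 2.99. No member came from the 14 IDs for xyloglucan and glucan enzymes, of which all 14 were at least 2-fold higher with a median log2 ratio of 2.65, nor from the 3 expansin IDs, of which all 3 were at least 2-fold higher with a median of 5.67. One ID of each of these lists met both limits and was among the 6 left out by name, so their absence among the members is set by that choice.

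Tubulins, the subunits of microtubules, gave 5 members. The beta-tubulin Tub1 (Gorai.004G210600) had means of 373 and 8812, and the alpha-tubulins TUA7 (Gorai.005G097800) and TUA8 (Gorai.007G086400) had 348 and 7578, and 340 and 5835. Beta-tubulin 5 (Gorai.005G118100) had 139 and 2435. These 4 were 17.2-fold to 23.6-fold higher, close to the limit of 16, while BTub1 (Gorai.004G211800) had 19.3 and 2757 and was 143-fold higher. All 18 tubulin IDs, of which 2 were left out by name, were at least 2-fold higher, with a median log2 ratio of 4.02. Tubulin genes resemble each other closely, and reads that align to several genes were not counted, so the values of single tubulins are uncertain. The 5 members held 17.2% of the reads of all 18 IDs at 0 DPA and 28.3% at 12 DPA. The list of the actin cytoskeleton, with 29 IDs that include annexins, kinesins and small GTP-binding proteins, held no member, because its 1 ID that met both limits was left out by name. All 28 with reads at both stages were at least 2-fold higher, with a median log2 ratio of 3.36.

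**Figure D3:**
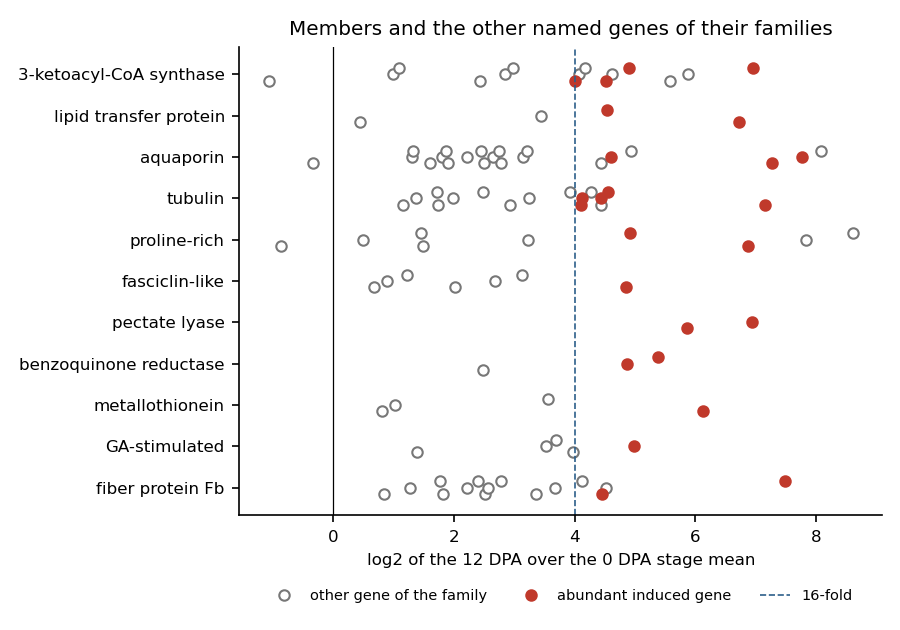
Each point is 1 gene with reads at both stages, placed by the log2 of its 12 DPA over its 0 DPA mean, for 11 families grouped by record name, without the IDs left out by name. Filled red points are abundant induced genes and open points the other genes of the family; the open points right of the dashed line at 16-fold are genes with a 12 DPA mean under 1000.

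Metallothioneins are small cysteine-rich proteins that bind metal ions. The metallothionein-like gene met-1 (Gorai.002G257700) had means of 344 and 24036 and was 69.8-fold higher. It held 51.0% of the reads of the 4 metallothionein IDs at 0 DPA and 96.3% at 12 DPA. Benzoquinone reductases, which reduce quinones, gave 2 members: BR2 (Gorai.009G429200) had 82.1 and 3440, and Gorai.002G079100 had 95.5 and 2788. Of the 28 IDs on the list of peroxidases and redox proteins, which holds these 3 members, 27 were at least 2-fold higher, with a median log2 ratio of 2.94. A gene with a record like phenylcoumaran benzylic ether reductase (Gorai.002G127000), an enzyme of lignan synthesis, had 79.3 and 2822 and was 35.6-fold higher. It was the only member among the 16 phenylpropanoid and flavonoid IDs, of which 14 of the 15 with reads at both stages were at least 2-fold higher, with a median log2 ratio of 2.23. The copper binding proteins, with 8 IDs, gave no member, and 6 of them were at least 2-fold higher, with a median of 2.63.

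Of the genes with names from hormone biology, the gene of an auxin binding protein record (Gorai.009G035800) had means of 36.5 and 10132. Its log2 ratio of 8.12 was the third highest of the members and the highest among members with a 12 DPA mean of at least 5000. GASL5 (Gorai.012G054200), of the small peptides first described as gibberellin-stimulated transcripts, had 50.6 and 1605 and was 31.7-fold higher. It held 2.92% of the reads of the 5 IDs with a GA-stimulated record at 0 DPA and 10.3% at 12 DPA. A second ID with the GASL5 record, Gorai.003G089100, had 4.23 and 66.7 and was 15.8-fold higher. The 29 IDs of the hormone list included 26 that were at least 2-fold higher and none at least 2-fold lower, with a median log2 ratio of 2.17.

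A cysteine proteinase inhibitor (CPI, Gorai.005G022500), of a class of proteins that block cysteine proteases, had 14.0 and 1452 and was 104-fold higher. The next ID, Gorai.005G022600, had the same record, with 0.577 and 106. All 8 IDs for proteases and inhibitors were at least 2-fold higher, with a median log2 ratio of 3.36. Transcription factors gave no member: of 53 IDs, 43 of the 52 with reads at both stages were at least 2-fold higher and 1 at least 2-fold lower, with a median log2 ratio of 2.42, and 1 had a 12 DPA mean of at least 1000. The list was matched by words in the record and took in 2 IDs of a record named defender against cell death 1, which is no transcription factor, and both are among the 43. The 21 IDs for nucleotide sugar and cellulose synthesis likewise gave none, with 19 at least 2-fold higher and a median of 1.52.

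A list of records from fiber work, in which not every record has the word fiber, gave 6 members, RDL among them, out of 32 IDs, of which 29 of the 31 with reads at both stages were at least 2-fold higher, with a median log2 ratio of 2.79. Fb10 (Gorai.006G138900) had means of 58.9 and 10569, a 179-fold difference. H6L (Gorai.005G233500), an H6-like protein, had 59.1 and 7294 and was 123-fold higher. The fiber clone pFS18 (Gorai.004G020900) had 16.05 and 2350, and Fb31 (Gorai.012G124700) had 74.5 and 1630. The E6-1 gene (Gorai.011G030000), whose record names it a protein kinase, had 68.6 and 3155 and was 46.0-fold higher. The putative membrane protein xl3 (Gorai.009G006000), on no list, had 58.9 and 2922 and was 49.6-fold higher. Of the fiber genes set as markers of the labelled tissue, LTP, FSltp1, RDL, E6-1, Fb10 and Fb31 were members, so their levels were fixed by the choice and check nothing. The markers outside it come from gene tables that list mostly genes higher at 12 DPA, so their rise checks little either. Of these, CFE1 (Gorai.009G172800) had means of 105 and 1518 and was 14.4-fold higher. The fiber-specific acyl carrier protein ACP1 (Gorai.013G116900) had 967 and 3124 and was 3.23-fold higher. The 13 other fiber protein Fb IDs, also markers, had log2 ratios from 0.85 to 4.53, with a median of 2.51. Of the 3 expansin IDs, markers too, 1 was left out by name. Alpha-expansin 2 (Gorai.009G293500) had 6.17 and 315 and was 51.0-fold higher. Alpha-expansin 3 (Gorai.001G239700) had 2.56 and 6.13 and was 2.39-fold higher.

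The remaining 43 members have no protein name here: 23 matched no record, 1 had no entry and the others had records of markers or unnamed clones. They held 42.2% of the members' 12 DPA sum. Their median 12 DPA mean was 2010 and their median log2 ratio 4.87, against 3155 and 5.41 for the named members. The gene with the most reads at 12 DPA of all 37500 genes, Gorai.009G167000, was among them, with a mean of 970 at 0 DPA and 54130 at 12 DPA, or 55.8-fold. Its 0 DPA mean was also the highest of the members. The highest ratio belonged to another unnamed gene, Gorai.006G068400, with 3.27 and 2210, which is 676-fold or a log2 ratio of 9.40. The order at the top depended on these low 0 DPA means: with a pseudocount of 10 the log2 ratio was 7.39 for Gorai.006G068400 and 6.35 for the P450-like gene Gorai.012G021600, both under the 7.77 of the auxin binding protein gene Gorai.009G035800. Gorai.003G009900 followed the P450-like and auxin binding protein genes with 15.3 and 3847, and Gorai.009G218500 had 15.9 and 2982. Gorai.001G188400 had 7.39 and 1205. No function can be given for these 5 genes.

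By the chromosome number in their IDs, the members were spread over all 13 chromosomes of the diploid G. raimondii genome to which the reads were aligned. Chromosome 9 held the most with 12 of 4564 genes, and chromosome 10 the fewest with 2 of 2570. As a share, chromosome 2 was highest with 9 of 2689 genes (0.335%), followed by chromosome 12 with 6 of 1875. Over the whole series the members were 78 of 37500 genes. With 2 to 12 members per chromosome these shares rest on few genes, and differences between chromosomes were not tested. The lipid transfer protein genes Gorai.011G128100 and Gorai.011G128200 were the only pair of members with adjacent IDs. The IDs on either side of this pair, Gorai.011G128000 and Gorai.011G128300, had 12 DPA means of 11.2 and 318. Gorai.001G188200, with 26.5 and 1062, and Gorai.001G188400 were separated by 1 gene, Gorai.001G188300, which had 32.5 at 0 DPA and 42.7 at 12 DPA.

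Of the 153 other IDs next to a member, 130 had reads at both stages. Among these, 10 (7.69%) were at least 16-fold higher at 12 DPA, against 2.61% of all genes, 34 (26.2%) were at least 2-fold higher and 34 at least 2-fold lower. Their median log2 ratio was 0.19. The 10 included the neighbours with the CPI and P450-like records. Neighbouring copies can share reads, and whether that played a part was not tested.

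At the limits, members and other genes differed little. Just inside the ratio limit lay KCS13, Gorai.012G153200, Gorai.007G022600, TUA8 and Gorai.009G073800, with ratios of 16.03 to 17.5. Just outside it lay Gorai.008G284800, Gorai.004G253200, beta-tubulin 3 (Gorai.007G351900), Gorai.009G200500 and the UDP-L-rhamnose synthase UER2 (Gorai.003G163300), with ratios of 15.97 down to 14.9. Just inside the limit on the 12 DPA mean were Gorai.005G129500, TIP1;4, Gorai.001G188200, Gorai.010G185300 and the P450-like gene, with means of 1011 to 1128. Just outside were an MLP-like protein (Gorai.002G177600), Gorai.010G082900, Gorai.007G262200, Gorai.006G233600 and the actin ACT12 (Gorai.011G260600), with means of 986 down to 924.

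The number of reads behind a 0 DPA mean sets how well a ratio is known. A single read added between 0.100 and 0.342 to a 0 DPA mean, depending on the library, so a mean allows a range of reads. The mean of 3.27 of Gorai.006G068400 came from 10 to 32 reads over the 6 libraries. That of the P450-like gene came from 12 to 38 reads. Every member had at least 10 reads at 0 DPA, 72 had at least 30 and 59 at least 100. The fewest reads were treated as a single Poisson count, with the 12 DPA mean held fixed. The approximate 95% interval of the log2 ratio was then 8.52 to 10.46 for Gorai.006G068400 and 7.37 to 9.13 for the P450-like gene. For LTP, with at least 994 reads, it was 6.63 to 6.81. These intervals cover counting error at 0 DPA alone and say nothing on the spread between lines. Members were chosen on the same ratio, so the intervals are no check of the 16-fold limit.

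**Figure D4:**
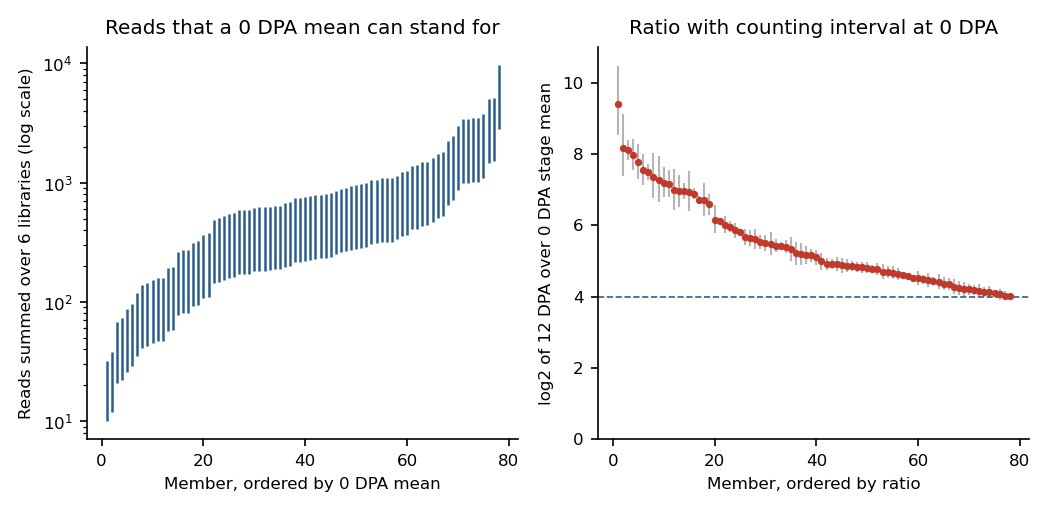
Left, the range of reads over the 6 libraries that each member's 0 DPA mean can stand for, on a log scale, with members ordered by that mean. Right, each member's log2 ratio with the approximate 95% Poisson interval for the fewest reads at 0 DPA. The dashed line is at 16-fold, the limit that chose the members, and the widest interval, 8.52 to 10.46, belongs to Gorai.006G068400.

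A measured difference in counting stood beside these results. Alignments that were not unique, which were left out of gene counts, summed to 43229739 normalized counts at 0 DPA and 9161917 at 12 DPA, or 4.72-fold more at 0 DPA. Its part in the lower 0 DPA means of the members was not tested. When each stage was scaled to the same sum over genes, which lowered every log2 ratio by 0.68, 54 of the 78 members still had a ratio of at least 16.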

How the data were processed

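Reads (paired, 100 bases) were trimmed by the authors with Trimmomatic 0.32 and aligned to the Gossypium raimondii genome with TopHat2 (2.0.13 in the submitters' notes). The study's methods name an earlier version of this aligner. The authors then counted reads on genes with HTSeq 0.6.0 and ran DESeq 1.18.0 for the stage comparison. Upland cotton is tetraploid and the reference diploid, so reads of both copies of a gene could be counted on 1 ID. How well each copy aligned was not examined. Use of strand: not given in the sources used here. The deposited signal columns, named RPKM, are stage means that behave as counts divided by 6 size factors: all 4438 values up to 1 at 0 DPA, and all 4341 at 12 DPA, were sums of whole reads (tolerance 2e-07). The authors' overall mean, fold change, log2 fold change, p-value and adjusted p were not used, and the 5 summary entries were left out of sums.

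Ratios, list counts and read ranges were computed with pandas 2.3.3 and SciPy 1.17.1 (Python 3.11.15). Simulated data without differences between lines tested the recovery of the value a single read adds and of set ratios. The read ranges were not tested in this way. No test was made, since there is 1 value per gene and stage. Members and lists were chosen with earlier results of these data known, and families after values were seen. Named were members with a protein record, the 10 highest by 12 DPA mean and by ratio, the 5 nearest to each limit on either side, and IDs that share a member's record. E6, LTP, FSltp1, RDL, expansins, CFE1, ACP1 and the fiber proteins Fb were fixed as markers. The IDs beside member pairs, KCS14, TIP1;1 and PIP2;1 were named after their values were seen. Other limits, total scaling and pseudocounts of 1 and 10 were tried.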

Additional observations from a re-analysis of the deposited data

Results flagged for a closer look

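Reads outside the gene counts gave values at both stages that no comparison used. Alignments that were not unique summed to 43229739 normalized counts at 0 DPA and 9161917 at 12 DPA. Reads outside gene models summed to 3369580 at 0 DPA and 4933544 at 12 DPA.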

How the results depend on the processing

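The number of abundant induced genes, 78, followed its limits. It was 127 with a 12 DPA mean of at least 500, 50 with at least 2000, 142 with a ratio of at least 8 and 40 with at least 32. It was 54 with each stage scaled to one total, 78 with 0 DPA means under 3 reads set to 3 reads, and 84 with the IDs left out by name. The median log2 ratio of 5.13 became 4.45 with total scaling, 5.11 with a pseudocount of 1, 4.81 with a pseudocount of 10 and 4.91 over members with a 0 DPA mean of at least 10. The members' share of the 12 DPA sum, 7.69%, became 1.97% with the summary entries in the total, 6.65% without Gorai.009G167000 and 9.81% with the IDs left out by name. Each of the 40 members named by protein record, mean or ratio stayed at least 8-fold higher under total scaling and with a pseudocount of 10, and 31 and 39 of them at least 16-fold. No paired analysis was possible because the table gives stage means only. For the same reason no line could be left out, and the spread between lines is unknown.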
